A study of Mus musculus with 6 samples.

Results

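Tap2, Psmb8, Psmb9, Psme2, Erap1 and Nlrc5 are 6 mouse genes of the class I antigen presentation route, taken by name as the peptide transporter, the immunoproteasome, its activator, the trimming peptidase and the class I transactivator. All 6 could be assigned to counts, out of 10774 genes named by position in the count tables of 53599 rows, and all 6 were among the 4578 named genes abundant enough to test. The RNA came from whole tumours of LG1233-OVA, a murine lung cancer line; by its name, it carries the model antigen ovalbumin. CRISPR/Cas9 was used to make stable lines lacking Uhrf1, whose product keeps DNA methylation in place when cells copy their genome. Control tumours (sgNT, genotype WT, n = 3) and knockout tumours (sgUhrf1, genotype Uhrf1 Knockout, n = 3) both grew from 1000000 LG1233-OVA cells placed under the skin of female C57BL/6 mice and were taken on day 27. Neither the age of the mice nor the number of clones behind each line is stated in the sample descriptions. The knockout was made in the injected cells, and nothing in the labels describes the host mice as modified.

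Cells display fragments of their own proteins on MHC class I molecules, where T cells read them. The proteasome cuts proteins into peptides, and interferon-gamma exchanges its catalytic subunits for immunoproteasome subunits such as those encoded by Psmb8 and Psmb9, while Psme2 encodes a subunit of the PA28 activator that caps the proteasome. TAP, a dimer of Tap1 and Tap2, carries peptides into the endoplasmic reticulum, Erap1 trims them there to the length that class I molecules hold, and Nlrc5 switches on the class I genes and several of these helpers.

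Between 5462555 and 6375069 counts were recorded per tumour, and a floor of 3 counts equals 0.442 to 0.656 CPM (counts per 1000000, scaled by TMM library size factors). The rows listed for Uhrf1 give no firm check of the labels. Its most-counted row (690 bp of exon) stood at 122 ± 20.9 CPM in sgNT and 94.2 ± 24.4 in sgUhrf1 tumours (SD, n = 3 each), with overlapping groups and an adjusted p of 0.227 in edgeR's quasi-likelihood test. A second Uhrf1 row (238 bp) stood at 13.5 ± 5.48 and 6.44 ± 1.69 CPM, without overlap and with an adjusted p of 0.0524. The summed CPM of 4 skeletal muscle genes was 450 in sgNT replicate 2 and 373 in sgUhrf1 replicate 1, against 2.47 to 22.7 in the other 4 tumours, and the 2 muscle-rich tumours were therefore also left out as a pair. Tumours of a group are labelled as biological replicates, and edgeR's p-values set the difference between the groups against the spread between these tumours. Since the number of clones is not stated, whether that spread includes differences between clones is unknown.

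Psmb9, Psmb8 and Tap2 lie in 1 stretch of chromosome 17 within the MHC, together with Tap1. In GRCm38 with the GENCODE M21 annotation, Psmb9 spans 34181987 to 34187764 on the minus strand, Psmb8 34197721 to 34201454 on the plus strand and Tap2 34203527 to 34216321 on the plus strand. Psme2 lies on chromosome 14 (55587441 to 55591113, minus strand), Erap1 on chromosome 13 (74639568 to 74693201, plus strand) and Nlrc5 on chromosome 8 (94434356 to 94527272, plus strand). RefSeq's GRCm38.p6 promoter table matched 4 of the 6 genes. The windows of these 4 are shown because their RNA can be set beside the sequence in front of the gene: each runs 5′ to 3′ on the gene's strand from 250 bases before a RefSeq start site to 30 bases after it. Capitals mark matches to a searched motif.
Psmb9, chr17:34187301-34187580, minus strand: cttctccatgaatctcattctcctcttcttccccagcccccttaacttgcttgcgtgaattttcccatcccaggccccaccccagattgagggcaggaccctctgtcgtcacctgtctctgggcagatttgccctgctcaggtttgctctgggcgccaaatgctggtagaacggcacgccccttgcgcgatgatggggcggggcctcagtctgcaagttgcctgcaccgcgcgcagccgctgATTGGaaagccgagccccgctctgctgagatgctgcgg
Psmb8, chr17:34197945-34198224, plus strand: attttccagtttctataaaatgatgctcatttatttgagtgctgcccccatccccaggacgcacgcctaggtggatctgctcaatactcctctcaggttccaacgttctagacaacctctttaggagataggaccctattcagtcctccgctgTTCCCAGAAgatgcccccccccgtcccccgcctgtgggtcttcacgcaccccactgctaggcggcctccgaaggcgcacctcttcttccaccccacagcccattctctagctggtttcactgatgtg
Psme2, chr14:55591072-55591351, minus strand: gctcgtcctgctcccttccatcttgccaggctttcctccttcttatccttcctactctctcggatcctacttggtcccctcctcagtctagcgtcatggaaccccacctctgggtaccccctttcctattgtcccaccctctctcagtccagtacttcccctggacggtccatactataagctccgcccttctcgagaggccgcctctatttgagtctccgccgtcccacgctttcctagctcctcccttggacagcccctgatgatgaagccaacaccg
Erap1, chr13:74639603-74639882, plus strand: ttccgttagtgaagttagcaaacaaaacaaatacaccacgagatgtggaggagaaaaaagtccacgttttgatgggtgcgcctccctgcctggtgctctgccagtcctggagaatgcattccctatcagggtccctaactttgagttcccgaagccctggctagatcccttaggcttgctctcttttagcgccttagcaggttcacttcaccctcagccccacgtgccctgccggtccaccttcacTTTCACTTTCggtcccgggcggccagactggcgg

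Both strands were searched for the interferon-gamma activated site GAS (TTCNNNGAA), the interferon response element ISRE (GAAA, any 2 bases, then GAAA) and the CCAAT box (CCAAT), which NF-Y binds. Psmb8 held 1 GAS match, TTCCCAGAA, 97 bases before its start site, and 7.83% of all 32851 windows hold a GAS match. Erap1 held 1 ISRE match on the opposite strand, TTTCACTTTC, which runs across the start site from 4 bases before it, and 3.28% of windows hold an ISRE match. Psmb9 held 1 CCAAT box on the opposite strand, ATTGG, 8 bases before its start site, and 36.1% of windows hold that box. The Psme2 window, like a window at a second Psme2 start, held none of the 3 motifs. A match describes letters and not a bound site. The Psmb9 window shares 275 bases with that of Tap1, which is read the other way from the same stretch. The windows held 15 CpG dinucleotides in Psmb9, 12 in Erap1, 11 in Psme2 and 10 in Psmb8, while the median of all windows was 6, with quartiles at 2 and 19. The RefSeq start sites lie downstream of the outermost GENCODE starts, by 474 bases in Psmb8, 434 in Psmb9, 285 in Erap1 and 12 in Psme2.

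Of the 6 genes, 5 rose in sgUhrf1 tumours and 1, Erap1, did not pass the test (edgeR, Benjamini-Hochberg adjusted p under 0.05 over 10503 rows). Across the 4578 named genes tested, 20.6% rose and 21.5% fell, and 39.9% of all tested rows passed in either direction. Each of the 5 rose by more than 2 on the log2 scale, as 9.02% of tested named genes did, and Tap2, Psmb8 and Psmb9 by more than 3, as 5.46% did. The median log2 fold change of the 6 genes was 3.09, and that of all tested named genes was -0.0035. All 5 genes that rose were higher in each sgUhrf1 tumour than in any sgNT tumour, as were 26.4% of tested named genes, and Erap1 was lower in each, as were 29.6%. In whole tumours, more cells of a type and more RNA per cell cannot be told apart.

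**Figure D1:**
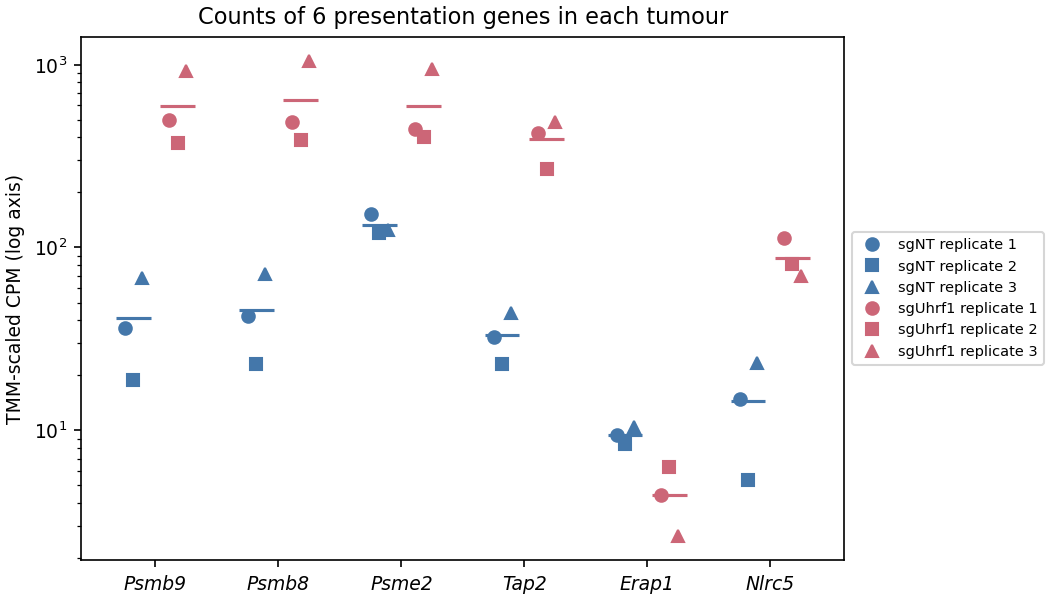
TMM-scaled CPM of the 6 genes (log axis) in each tumour, blue for sgNT and red for sgUhrf1, marker shape for the replicate and a bar for the group mean. The red points lie above all blue points for 5 genes and below them for Erap1, whose means are 9.42 and 4.45 CPM.

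Psmb9 encodes the immunoproteasome subunit that takes the place of the caspase-like constitutive subunit. Its row covered 463 bp of exon. Of these, 224 bp lay in exons 2, 3 and 6 of 6 of its main transcript, 153 of them coding. The rest lay in exons of other annotated transcripts of the gene. The sgNT tumours gave 36.2, 18.7 and 67.9 CPM and the sgUhrf1 tumours 498, 372 and 925. The lowest sgUhrf1 tumour, replicate 2, was still several times above the highest sgNT tumour, replicate 3. The means were 40.9 ± 24.9 and 598 ± 290 CPM (SD, n = 3 each), a 14.6-fold rise with a log2 fold change of 3.87 ± 0.51 (SE) and an adjusted p of 0.000732 in edgeR. It ranked 148 of 4578 named genes by log2 fold change.

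Psmb8 encodes the chymotrypsin-like subunit of the same particle. The sgNT tumours gave 42.1, 23.2 and 71.4 CPM and the sgUhrf1 tumours 488, 387 and 1055. The order of the tumours was that of Psmb9 in both groups, with replicate 2 lowest and replicate 3 highest. The rise was 14.1-fold, from 45.5 ± 24.3 to 643 ± 360 CPM, with a log2 fold change of 3.82 ± 0.50 and an adjusted p of 0.000725 in edgeR. This row held no coding base of the main transcript of Psmb8: 190 of its 420 bp lay in exon 6 of 6 of that transcript. The rest lay in exons of other annotated transcripts of the gene, whose coding bases were not counted. A row shared by 276 bp of Psmb8 and the predicted gene Gm20496 also rose, by 2.79 ± 0.40 on the log2 scale (adjusted p 0.00102), where 20.2% of all tested rows rose.

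Psmb8 and Psmb9 kept nearly the same proportion in every tumour. Their CPM ratio ran from 0.981 to 1.24 over all 6 tumours. The mean log2 ratio was 0.20 ± 0.12 in sgNT and 0.07 ± 0.11 in sgUhrf1 tumours, with overlapping groups (difference -0.13, exact two-sided permutation p 0.2). Among 15 pairs of the 6 genes compared in this way, the smallest p that 3 against 3 tumours allow is 0.1, or 0.167 after Benjamini-Hochberg adjustment, so no pair could pass.

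Psme2, the beta subunit gene of PA28, rose less and from a higher starting level. The sgNT tumours gave 152, 120 and 125 CPM and the sgUhrf1 tumours 446, 401 and 945. The sgNT tumours were close together, and sgUhrf1 replicate 3 stood well above the other two. The means were 133 ± 17.4 and 597 ± 302 CPM, a 4.50-fold rise with a log2 fold change of 2.17 ± 0.33 and an adjusted p of 0.00127 in edgeR. Its row covered 566 bp of exon. Of these, 267 bp lay in exons 9 to 11 of 11 of its main transcript, 220 of them coding, and the rest in exons of other transcripts. The mouse genome carries a near copy, Psme2b, on another chromosome, so reads may have been divided between them or dropped.

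The log2 ratio of Psmb9 to Psme2 was -2.07, -2.68 and -0.88 in sgNT tumours and 0.16, -0.11 and -0.03 in sgUhrf1 tumours. The subunit was thus counted less than the activator in each sgNT tumour and about equally in each sgUhrf1 tumour. The groups did not overlap, and the difference of 1.89 had an exact permutation p of 0.1 (adjusted 0.167), the smallest available. The same holds for Psmb8 to Psme2 (difference 1.76) and Tap2 to Psme2 (difference 1.51), which share the Psme2 values.

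**Figure D2:**
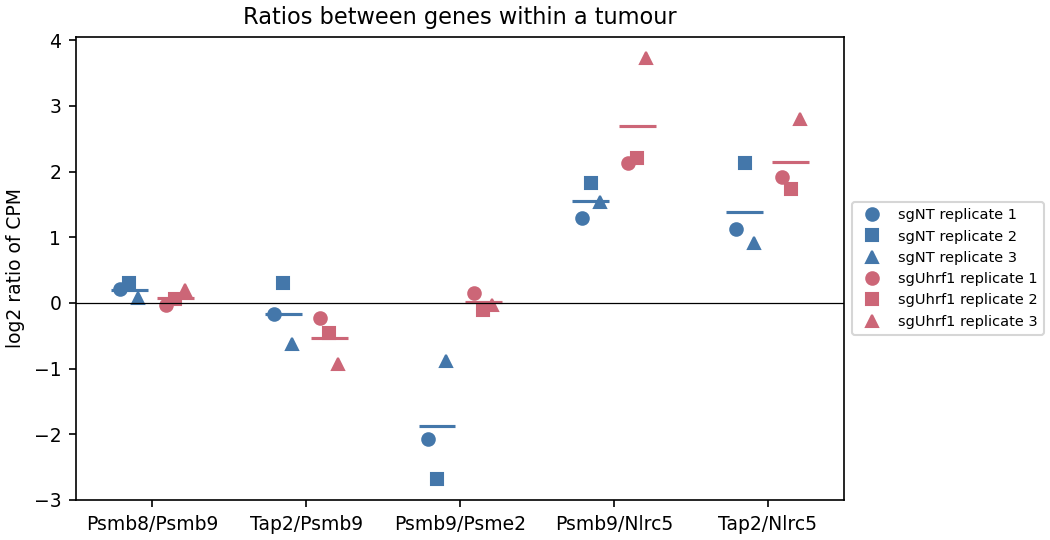
Log2 ratio of CPM between 2 genes in each tumour, blue for sgNT and red for sgUhrf1, with the replicate as the marker shape and the group mean as a bar. Psmb8/Psmb9 stays near 0 in all 6 tumours, while Psmb9/Psme2 moves from a mean of -1.88 to 0.01.

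Tap2 encodes one chain of the peptide transporter. Its row covered 418 bp in exons 11 and 12 of 12, 314 of them coding. The sgNT tumours gave 32.3, 23.2 and 43.9 CPM and the sgUhrf1 tumours 426, 270 and 486. Again replicate 2 was the lowest and replicate 3 the highest of each group, over a narrower range than Psmb8 and Psmb9. The means were 33.1 ± 10.4 and 394 ± 111 CPM, an 11.9-fold rise with a log2 fold change of 3.57 ± 0.31 and an adjusted p of 0.000136 in edgeR. The other transporter chain, Tap1, had no row of its own, but a row over 807 bp of Tap1 and 53 bp of Psmb8 rose from 70.5 ± 40.0 to 793 ± 226 CPM (log2 fold change 3.49 ± 0.41, adjusted p 0.000477). The Tap2 to Psmb9 log2 ratio differed by -0.38 between the groups, which overlapped (exact permutation p 0.4).

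Erap1, the aminopeptidase of the endoplasmic reticulum, was the gene that did not rise. Its row covered 183 bp, all coding, in exon 2 of 19, and was thinly counted. The sgNT tumours gave 60, 57 and 59 counts and the sgUhrf1 tumours 25, 40 and 12. These equal 9.45, 8.41 and 10.4 CPM against 4.40, 6.32 and 2.63, and the groups did not overlap. The means were 9.42 ± 1.00 and 4.45 ± 1.85 CPM, with a log2 fold change of -1.06 ± 0.39 and an adjusted p of 0.0577 in edgeR (unadjusted p 0.0240). The adjusted p was 0.0466 with DESeq2 and 0.0467 with limma-voom, so the call turns on the tool. A second Erap1 row (55 bp) gave 27, 35 and 31 counts in sgNT and 16, 18 and 20 in sgUhrf1 tumours. After scaling its groups overlapped, with a log2 fold change of -0.57 ± 0.41 and an adjusted p of 0.289.

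Nlrc5 encodes the transactivator of class I genes, a member of the NLR family that acts in the nucleus. Its row covered 944 bp of exon. Of these, 667 bp, all coding, lay in exons 8 and 50 of 53 of its main transcript, and the rest in exons of other transcripts. The sgNT tumours gave 14.8, 5.31 and 23.4 CPM and the sgUhrf1 tumours 113, 80.8 and 69.6. Among sgNT tumours the order was that of Psmb9, but among sgUhrf1 tumours replicate 3 was lowest for Nlrc5 and highest for Psmb9, Psmb8, Tap2 and Psme2. The means were 14.5 ± 9.07 and 87.8 ± 22.6 CPM, a 6.07-fold rise with a log2 fold change of 2.60 ± 0.46 and an adjusted p of 0.00261 in edgeR. Without both muscle-rich tumours it was 1.97 ± 0.36 (adjusted p 0.00874). A second Nlrc5 row (855 bp) rose by 2.03 ± 0.43 (adjusted p 0.00584), which became 1.51 with an adjusted p of 0.0527 without the muscle-rich tumours. The log2 ratio of Psmb9 to Nlrc5 was 1.29, 1.82 and 1.53 in sgNT and 2.14, 2.20 and 3.73 in sgUhrf1 tumours, without overlap (difference 1.14, exact permutation p 0.1), whereas those of Tap2 and Psmb8 to Nlrc5 overlapped between groups.

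Set per kilobase of covered exon, the levels in sgNT tumours ran from Psme2 (234 ± 30.7 CPM per kb) through Psmb8 (108 ± 57.9), Psmb9 (88.4 ± 53.8), Tap2 (79.2 ± 24.9) and Erap1 (51.5 ± 5.46) to Nlrc5 (15.4 ± 9.61). In sgUhrf1 tumours the order was Psmb8 (1531 ± 857 CPM per kb), Psmb9 (1292 ± 625), Psme2 (1055 ± 534), Tap2 (942 ± 266), Nlrc5 (93.0 ± 23.9) and Erap1 (24.3 ± 10.1). The mean ± SD ranges of Psmb8, Psmb9 and Tap2 overlapped in both groups, and that of Psme2 overlapped with them in the sgUhrf1 tumours. Erap1 stood above Nlrc5 in the sgNT means and below it in the sgUhrf1 means. Each row covers only a piece of its gene, so these levels are those of the pieces. The divisor includes exon outside the main transcript, which holds all covered bases of Tap2 and Erap1. It holds only 190 of 420 bp for Psmb8, 224 of 463 for Psmb9, 267 of 566 for Psme2 and 667 of 944 for Nlrc5. The order and the overlaps between genes therefore depend on this divisor.

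Of the 6 listed genes of the immunoproteasome and PA28, 3 had a row of their own, the members Psmb8, Psmb9 and Psme2, and all 3 rose. In the transporter and loading complex (8 genes), Tap2 alone had its own row. Counting rows shared with other genes, 3 of 4 tested rows rose: those of Tap2, Tap1 and Tapbp, the last with Daxx, Platr17 and Rgl2 (1.82 ± 0.24, adjusted p 0.000794). Across all tested rows, 20.2% rose. The row with Canx, a general chaperone of the endoplasmic reticulum, gave -0.03 ± 0.20 (adjusted p 0.912).

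Among 8 peptide-trimming and cytosolic peptidase genes, 3 were tested on their own row and none passed: 0 rose and 0 fell in edgeR. Besides Erap1, these were Npepps, the puromycin-sensitive aminopeptidase (-0.46 ± 0.18, adjusted p 0.0664), and Blmh, bleomycin hydrolase (-1.16 ± 0.48, adjusted p 0.0820). All 3 were lower in each sgUhrf1 tumour than in any sgNT tumour, as were 29.6% of tested named genes. At an unadjusted p under 0.05 all 3 would have passed, but so would more than the 39.9% of all tested rows that passed after adjustment. The exact share at that level was not counted. Of the shared rows, that with 132 bp of Lnpep, the related insulin-regulated aminopeptidase, fell by 2.39 ± 0.52 on the log2 scale (adjusted p 0.00670, but 0.101 without both muscle-rich tumours), where 19.7% of all tested rows fell. The shared rows with Thop1 (-0.38, adjusted p 0.118) and Tpp2 (-0.15, adjusted p 0.524), both cytosolic peptidases, did not pass.

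Of 11 class I transactivation genes, 5 were tested on their own row, of which Nlrc5 rose and Nfya fell. Nfya, a subunit of the CCAAT-binding factor NF-Y, stood at 23.9 ± 4.57 and 10.1 ± 1.85 CPM (log2 fold change -1.23 ± 0.28, adjusted p 0.00835, and 0.109 without both muscle-rich tumours). Another NF-Y subunit gene, Nfyc, gave -0.58 ± 0.27 (adjusted p 0.119). Rfxap, part of the RFX complex that Nlrc5 works with at class I promoters, gave 0.46 ± 0.18 (adjusted p 0.0695), and the interferon regulatory factor gene Irf2 gave 0.61 ± 0.26 (adjusted p 0.0935). The row with Creb1 did not pass (-0.33, adjusted p 0.187).

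The constitutive proteasome genes had smaller fold changes. Of 14 core genes only Psma5 had its own tested row (0.39 ± 0.24, adjusted p 0.234). With shared rows the 6 tested had a median log2 fold change of 0.24, and 2 rose, where 20.2% of all tested rows rose. The 2 were the shared rows of Psma4 (0.92, adjusted p 0.0459) and Psmb5 (0.58, adjusted p 0.0205), picked out after their values were seen. Neither passed without both muscle-rich tumours, with no count filter, or without sgNT replicate 2 or 3. Psma4 also missed the threshold with upper-quartile factors, with the replicate block (adjusted p 0.0581), and without sgUhrf1 replicate 1 or 2. Of 23 genes of the regulatory particle and other activators, 5 were tested on their own row, with a median of -0.11. Psme4, which encodes the activator PA200, fell from 51.5 ± 0.85 to 13.1 ± 5.76 CPM (log2 fold change -1.96 ± 0.33, adjusted p 0.00205). Psmc2, Psmd3, Psmd4 and Psmd9 gave 0.68, -0.11, 0.23 and -0.24 on the log2 scale and did not pass. With shared rows 11 were tested, of which 0 rose and 2 fell, where 19.7% of all tested rows fell. Besides Psme4, the shared row of Psmc1 fell (-0.72 ± 0.25, adjusted p 0.0443 in edgeR). The Psmc1 call was lost in several alternatives, among them without both muscle-rich tumours (adjusted p 0.194). The difference between these lists and the 6 genes was not tested.

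**Figure D3:**
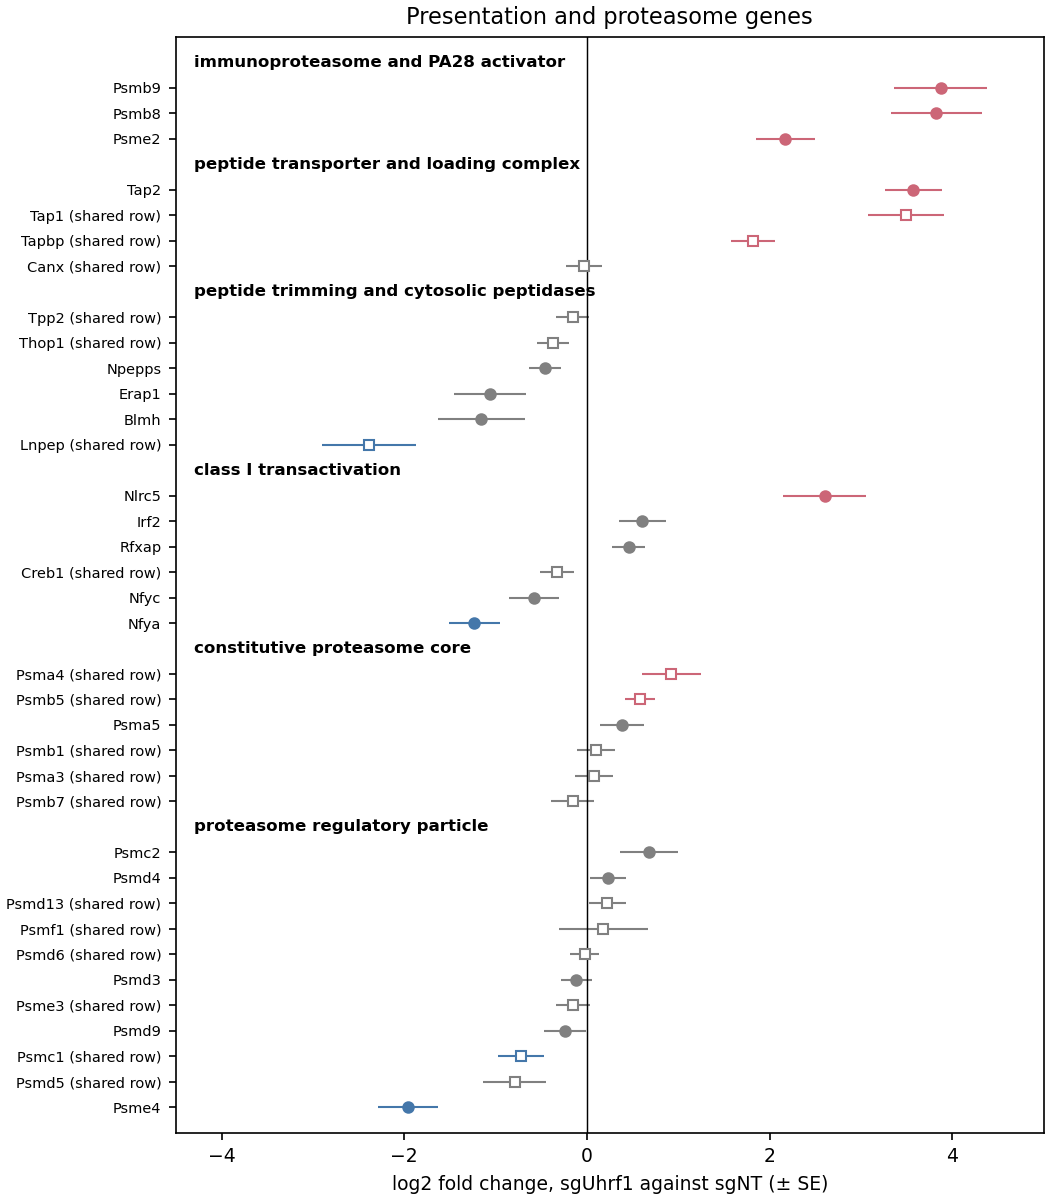
Log2 fold change (± SE) of sgUhrf1 against sgNT tumours for the tested genes of 6 lists, with 1 shared row left out. Filled circles are rows of 1 gene and open squares rows shared with other genes, red where the row rose, blue where it fell and grey where it did not pass. Psmb9, Psmb8, Tap2 and the shared Tap1 row lie farthest to the right, Nlrc5 and Psme2 follow, and the core proteasome points run from -0.15 to 0.92.

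Of 12 interferon-gamma signalling genes, 3 were tested on their own row and 0 passed in edgeR. Ifngr1, a receptor chain, gave -0.21 ± 0.24 (adjusted p 0.521) and Ptpn2, a phosphatase that dampens the pathway, -0.25 ± 0.25 (adjusted p 0.446). The kinase gene Jak2 gave 0.49 ± 0.19 (adjusted p 0.0618, and 0.0488 with DESeq2), with an unadjusted p of 0.0261. Rows shared with other genes gave a different picture, where 20.2% of all tested rows rose. The row of Socs1 (with CT010583.1) rose by 2.79 ± 0.38 (adjusted p 0.000823). That of Stat2 (with Timeless) rose by 1.16 ± 0.25 (adjusted p 0.00666, but 0.114 without both muscle-rich tumours). That of Socs3 (with Pgs1) did not pass (0.31 ± 0.16, adjusted p 0.153). Of 15 other NLR family genes, only Nlrx1 had its own tested row, at 0.02 ± 0.41 (adjusted p 0.974). Of the 9 tested when shared rows are counted 4 rose, where 20.2% of all tested rows rose. They were the rows of Nlrp6 (with Pgghg), Naip5 (with Naip2 and Gm18413), Nod1 (with Gm44185) and Nod2 (with Snx20). Which gene of each row rose cannot be told. The rows of Nod1 and Nod2 did not pass without both muscle-rich tumours. Nod2 also missed the threshold when any 1 tumour was left out, with upper-quartile factors and with the replicate block. These 4 were named after their values were seen.

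Other rows near the members were compared over 200 kb on either side. Around Psmb9, Psmb8 and Tap2, 17 further rows were tested, of which 8 rose, 0 fell and 9 did not pass, with a median log2 fold change of 1.42, and 20.2% of all tested rows rose. Those that rose include the rows shared with Tap1 and with Gm20496, which themselves hold Psmb8 exons. A row of Col11a2 also rose (2.55 ± 0.37), while another row of that gene alone did not pass (1.42 ± 0.61). The class I gene H2-K1 rose by 3.17 ± 0.42, and of the class II genes H2-DMa rose by 2.16 ± 0.30, H2-Eb1 by 2.74 ± 0.37 and H2-DMb1 by 3.39 ± 0.35. H2-DMb2 (0.50 ± 0.47), H2-Ob (-1.54 ± 0.94) and H2-Eb2 (-1.44 ± 0.91), all in the same stretch, did not pass. Around Psme2, 6 of 9 other rows rose (median 1.34), among them Rabggta, which encodes a geranylgeranyl transferase subunit (1.34 ± 0.18). Around Nlrc5, 4 of 5 rows rose, including its own second row and the noncoding gene 9330175E14Rik at its start (2.01 ± 0.54, adjusted p 0.0169). Around Erap1, 0 of 8 rows, its own second row among them, rose and 1 fell, where 19.7% of all tested rows fell. The row that fell was of Cast, the calpain inhibitor gene, 169 kb away (-2.09 ± 0.33, adjusted p 0.00161). Another row of Cast alone, 90 kb away, did not pass (-0.14 ± 0.52, adjusted p 0.858). Rows that adjoin can hold reads of the same transcript, so they are not independent.

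**Figure D4:**
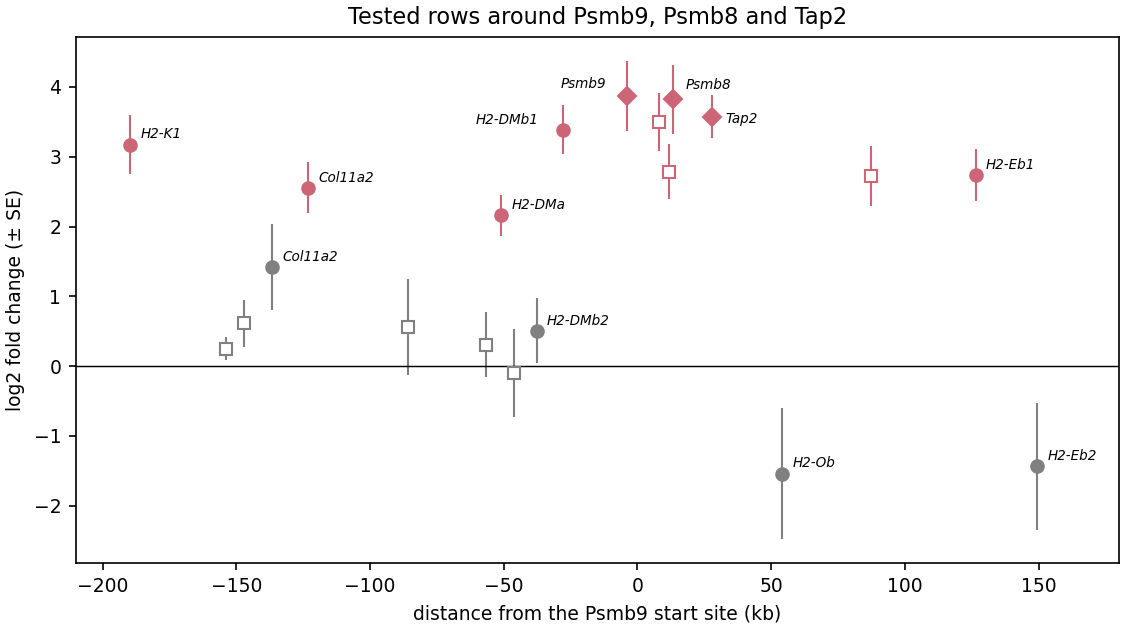
Log2 fold change (± SE) of each tested row against its distance from the Psmb9 start site in kb. Diamonds are Psmb9, Psmb8 and Tap2, circles other rows of 1 gene, open squares shared rows, red where the row rose and grey where it did not pass. Rows that rose are interspersed with rows that did not pass.

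The genes with the most similar pattern over the 6 tumours were sought among 4099 named genes by Pearson's r of log2 CPM, given as a description, since the group difference enters every such r. For Psmb9 they were Psmb8 (r = 0.999), Gbp6, an interferon-inducible GTPase gene (0.999), and Ikzf4, a zinc finger factor gene (0.998). For Psmb8 they were Psmb9, Zmiz2 (0.999) and Cnp (0.998). For Tap2 they were Batf2 (0.997), Irgm2 (0.996) and Oas3 (0.994), which are known as interferon-induced genes. For Psme2 they were Vps16 (0.997), Ccdc12 (0.996) and Nsd1 (0.996). For Nlrc5 they were Tspoap1 (0.986), C2cd2l (0.986) and Mndal (0.984). For Erap1 they were Washc2 (0.995), Rab11fip2 (0.994) and Bivm (0.993), and all 3 of these fell. Among the 6 genes themselves, r was 0.987 to 0.999 between Tap2, Psmb8 and Psmb9. It was 0.826 between Psme2 and Nlrc5, and -0.685 to -0.957 between Erap1 and the others.

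Some markers of other cell types moved with these genes. All 6 tested of 18 T and NK lymphocyte markers rose, where 20.6% of tested named genes rose. The summed CPM of the 8 with a row lay between 11.1 and 28.6 in sgNT tumours and between 113 and 278 in sgUhrf1 tumours. Replicate 2 was lowest and replicate 3 highest for this sum in both groups, the order seen for Psmb9, Psmb8 and Tap2. The dendritic cell sum (5 of 10 with a row) went from 19.9 to 25.9 up to 86.2 to 142. Itgax (2.15 ± 0.29, adjusted p 0.000794) and Ccl22 (3.68 ± 0.38, adjusted p 0.000258) rose and carry this sum, whereas Wdfy4 fell (-1.89 ± 0.57, adjusted p 0.0270), and Flt3 and Zbtb46 had at most 6 counts in any tumour. The Wdfy4 call was lost with limma-voom, with the replicate block, without both muscle-rich tumours, and without replicate 2 or 3 of either group. The neutrophil sum (2 of 7) went from 6.19 to 15.3 up to 76.3 to 121, with Csf3r rising (3.46 ± 0.35, adjusted p 0.000245) and Mmp8 not passing (0.15 ± 0.75, adjusted p 0.895). The pan-leukocyte sum (7 of 12) overlapped, at 111 to 153 and 85.0 to 200, as did macrophage markers (8 of 13) at 539 to 819 and 287 to 987. Of the 7 macrophage markers tested, Mertk fell (-1.64 ± 0.58, adjusted p 0.0492) and 6 did not pass, where 21.5% of tested named genes fell. The Mertk call was lost in several alternatives. Epithelial markers (3 of 8, Cdh1, Krt7 and Krt19) went from 154 to 434 up to 1673 to 2797. B cell markers (2 of 7) stood at 0.442 to 70.7 and 7.22 to 11.2, the highest in sgNT replicate 3. Endothelial markers (4 of 7) stood at 44.6 to 98.6 and 57.5 to 103, and fibroblast markers (5 of 8) at 5474 to 9120 and 5289 to 15179. Col1a2 carries the fibroblast sum (7301 ± 1824 and 10831 ± 5046 CPM, adjusted p 0.273). Pdgfra fell (-1.73 ± 0.49, adjusted p 0.0211), a call lost without sgNT replicate 2 and without both muscle-rich tumours. Pdgfrb (-1.41 ± 0.52, adjusted p 0.0551) and Dcn (0.41 ± 0.53, adjusted p 0.568) did not pass. No marker with a row was at 0 in all tumours.

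Relative to the lymphocyte sum, Psmb9 stood at 1.39 to 2.38 in the sgNT group and at 2.96 to 3.33 in the sgUhrf1 group, and Psmb8 1.61 to 2.50 and 2.90 to 3.80, both without overlap. For Tap2 the ratio overlapped (1.23 to 2.09 and 1.75 to 2.53), as it did for Nlrc5 (0.480 to 0.821 and 0.250 to 0.718), while for Psme2 it was lower in sgUhrf1 tumours (4.38 to 10.9 and 2.65 to 3.56). Relative to the pan-leukocyte sum, Psmb9 was 0.124 to 0.443 and 3.80 to 4.62, and Nlrc5 0.0352 to 0.153 and 0.348 to 0.952, again without overlap. Relative to the epithelial sum, the Tap2 ratio overlapped (0.0745 to 0.285 and 0.0966 to 0.255), and so did that of Psmb9 (0.0765 to 0.440 and 0.133 to 0.441). These ratios describe the tumours, and the part of each cell type in the gene changes was not tested.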

How the data were processed

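Polyadenylated RNA of 6 tumours, 3 per group, was sequenced in pairs on an Illumina NovaSeq, per the labels' protocols. The authors deposited raw counts of read pairs per gene row, in a separate table for every tumour. The tools were fastp, STAR and featureCounts and the build GRCm38, per the submitters' processing notes. Per the file headers, featureCounts was version 2.0.1, without strand, with an annotation (GENCODE M26) whose coordinates belong to GRCm39. The rows that carry the members' own names therefore hold other sequence: the row named Tap2 held 0 counts and that named Psme2 lay over Nfatc4. Rows were renamed by position with GENCODE M21 exons of GRCm38: 13439 rows cover at least 50 bp of exons of exactly 1 gene and hold 40.3% of the 35176944 counts, 4952 rows shared by several genes hold 57.9%, and rows over no exon hold 1.09%. The row with most counts stood for a gene.

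The test was edgeR's quasi-likelihood F test (edgeR 4.0.16, R 4.3.3) with TMM scaling. Rows were kept by filterByExpr with the groups given, at a minimum count of 10 and a total of at least 15. Adjusted p-values (Benjamini-Hochberg) cover the 10503 rows kept, with a threshold of 0.05. Standard errors are from the same fit. CPM are per 1000000 TMM-scaled counts, as mean ± SD. The fit was checked on simulated data. Alternatives included DESeq2 1.42.0, limma-voom (limma 3.58.1), other scalings and filters, a replicate block and leaving out tumours. Floors of 3 counts cover counting error only. The members, the lists of genes and the naming rule (the members, tested members of short lists, and the 3 genes most correlated with each member) were chosen with earlier results of these data known. The result for 1 row of the gene lists is left out here.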

Additional observations from a re-analysis of the deposited data

How the results depend on the processing

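Tap2, Psmb8, Psmb9, Psme2 and Nlrc5 kept their direction and stayed past the threshold in all 17 alternatives tried. Their log2 fold changes ran from 3.30 to 3.83, 3.26 to 4.30, 3.41 to 4.45, 1.67 to 2.38 and 1.97 to 3.13, in that order. Among the 17, a minimum of 200 bp of exon only selects rows without a new fit, so it had to repeat the main values. The lowest Nlrc5 value, 1.97, came without both muscle-rich tumours and the cause was not tested. Erap1 stayed negative in all 16 alternatives that gave a value, and passed the threshold in 5: DESeq2 (-1.05), limma-voom (-1.09), upper-quartile factors (-1.16), rows of a gene summed (-0.90), and without sgUhrf1 replicate 2 (-1.41), the lowest of a leave-one-out range that reached -0.81. Its row covers too little exon for the 200 bp minimum. Rows past the threshold numbered 2121 higher and 2067 lower, and genes 945 and 985. Without both muscle-rich tumours, with fewer samples, they numbered 1094 and 771 rows and 522 and 384 genes. Leaving out 1 tumour at a time gave 1259 to 1908 lower rows and 613 to 902 lower genes, the fewest without sgNT replicate 2. The replicate numbers did not pair the tumours: deviations of same-numbered tumours correlated at -0.08, -0.02 and 0.05, and not every tumour correlated best with its own number. With the replicate number as a block, 1838 rows rose and 1807 fell, and the log2 fold changes were 3.58 for Tap2, 3.83 for Psmb8, 3.95 for Psmb9, 2.06 for Psme2, 2.77 for Nlrc5 and -1.12 for Erap1 (adjusted p 0.0867), with no member's call changed. Depth limits Erap1 most, with 12 counts in sgUhrf1 replicate 3.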
